A study of Xenopus laevis with 16 samples.

Results

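Glucocorticoid response genes were followed across 8 groups of animal caps, pieces of prospective ectoderm cut from embryos of the frog Xenopus laevis. The members are the rows whose name, without its copy suffix, is tsc22d3, fkbp5, klf9, per1, dusp1, angptl4, mknk2, klf15, cry2 or gpx3. They were chosen by name, with earlier results of these data known. Of the 10 genes sought, 9 had a row, 7 of them as an L and an S copy and 2 (tsc22d3 and per1) as an L copy, which gives 16 members among 45038 rows. All 16 passed the filter on low counts, which kept 30384 rows. fkbp5 was not analysed here. The L and S copies, or homeologs, are the pair of loci that the allotetraploid frog carries for many genes, and reads of a copy may be assigned to its partner.

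For the injected groups, the animal pole of both cells of 2-cell embryos had received 20 pg of mRNA, and caps were cut at the blastula stage. The mRNA encoded the mutant Ptf1a with the changes W224A and W242A (ptf1aW224A/W242A-GR, called the mutant), wild-type Ptf1a (ptf1a-GR) or Neurog2 (GR-neurog2). For the control caps the labels name no mRNA. Each injected protein is a bHLH transcription factor fused to the hormone-binding domain of the glucocorticoid receptor (GR). Ptf1a acts together with the DNA-binding protein Rbpj, and the tryptophans changed in the mutant are known as contacts with it. Caps of all 8 groups, controls included, were kept in dexamethasone, a synthetic glucocorticoid, for 25 h or for 6 h. No group without dexamethasone and no group with the GR domain alone was analysed here, and the labels do not make plain whether control caps had been injected. Each group has 2 libraries, for which the labels state neither the number of caps nor separate batches of embryos, so a p-value measures the spread between these libraries, which may be technical.

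Glucocorticoids bind the receptor Nr3c1, which then leaves its chaperones, enters the nucleus and binds glucocorticoid response elements in DNA. The hormone-binding domain alone, joined to another protein, keeps that protein bound to chaperones until a ligand arrives, which is how such fusions are switched on at a chosen time. In mammalian cells, tsc22d3 (also called GILZ, an anti-inflammatory leucine zipper protein), fkbp5, per1, dusp1, klf9, klf15 and angptl4 are among the widely used readouts of receptor activity. In Xenopus, klf9 is known as a target of both glucocorticoid and thyroid hormone.

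The shallowest library held 31436437 counts, the deepest 228346016, and the control libraries of 6 h, with 49151603 and 31436437, were among the shallower ones. The labels fitted the injected genes: at 6 h ptf1a.L had 152 and 146 CPM with the mutant and 184 and 181 CPM with Ptf1a, against 0.161 and 0.187 CPM in the controls, and neurog2.L had 158 and 192 CPM with Neurog2. CPM are counts scaled to library size with TMM. Epidermal markers were present in every library, with a summed level over 19 copies of 927 to 2241 CPM at 6 h and 54403 to 130080 CPM at 25 h. In each library 69.5 to 76.6% of the counts from 1 up to 1000 were even, and counts of 2 were 5.38 to 9.02 times as frequent as counts of 1, as they would be if both reads of a pair had been counted, which the sources used here do not give. In the comparisons below a gene is said to have risen or fallen when its Benjamini-Hochberg adjusted p over all 30384 genes, from edgeR's quasi-likelihood test, was under 0.05. All 3 comparisons of a time use the same 2 control libraries.

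At 6 h tsc22d3.L rose with each of the 3 fusions, by 9.84 to 16.3 times in mean CPM, and angptl4.S, at a level far lower, was called higher with each as well. No member passed the test in the other direction. The count was 2 of 16 with the mutant, where 0.606% of all genes tested were called, 2 of 16 with Ptf1a (0.902% of all genes) and 2 of 16 with Neurog2 (0.25% of all genes). An unadjusted p under 0.05 in the same test was found for 3 members with the mutant, 7 with Ptf1a and 2 with Neurog2. Over all genes the shares were 6.52, 7.03 and 3.93%. The median log2 fold change of the 16 members was 0.06 with the mutant, 0.36 with Ptf1a and 0.04 with Neurog2, beside 0.03, 0.15 and 0.01 over all genes. For Ptf1a the median of all genes depended on the scaling, at 0.15 with TMM and 0.00 with the size factors of DESeq2.

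tsc22d3.L lies on chromosome 8L, positions 14111677 to 14155691 on the minus strand in build 9.1, with 4 annotated exons. At 6 h it stood at 154 and 169 CPM with the mutant, 92.8 and 136 CPM with Ptf1a and 86.7 and 109 CPM with Neurog2, against 7.33 and 12.5 CPM in the controls. The lowest of the 6 injected libraries lay several times above the higher control, and no injected group overlapped the controls. The log2 fold change was 4.03 ± 0.27 with the mutant (SE, adjusted p = 8.64e-05), 3.52 ± 0.27 with Ptf1a (adjusted p = 0.000135) and 3.30 ± 0.27 with Neurog2 (adjusted p = 0.000942). These are 16.3, 11.5 and 9.84 times the mean CPM of the controls. The calls of the mutant and of Ptf1a held in all 11 alternatives, and that of Neurog2 in 10 of 11. The exception was the fit on the libraries of 6 h alone, with an adjusted p of 0.0524, and over its alternatives p ranged between 8.24e-21 and 0.0524. Per kilobase of exon tsc22d3.L was the highest of the 16 members with the mutant at 81.5 CPM per kb, with Ptf1a at 57.6 and with Neurog2 at 49.3, where its libraries overlapped those of mknk2.S. In the controls of 6 h it ranked 7th of 16, at 5.01 CPM per kb.

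The fusions were also set against each other. For tsc22d3.L the test of any difference among the 3 at 6 h, by edgeR's quasi-likelihood fit, gave an adjusted p = 1. The mutant exceeded Ptf1a by a log2 difference of 0.50 ± 0.27, with a 95% interval of -0.08 to 1.09, which holds both equal levels and a log2 difference of 1. Mutant minus Neurog2 was 0.72 ± 0.27 with an interval of 0.14 to 1.31, not corrected for the number of pairs, and Ptf1a minus Neurog2 was 0.22 ± 0.27 with an interval of -0.36 to 0.81. The 2 mutant libraries lay above all 4 others, and those of Ptf1a and Neurog2 overlapped. Over all members, edgeR's test among the fusions called 0 of 16 at 6 h (0.151% of all genes). In that test 4 of 16 members had an unadjusted p under 0.05, as did 755 of all 30384 genes. DESeq2 called 1 member, angptl4.L, and 182 genes in all. At 25 h edgeR's test called 0 of 16 (8.76% of all genes). There 2 of 16 members had an unadjusted p under 0.05, as did 6934 of all 30384 genes. DESeq2 called 2 members, klf9.L and klf15.L, and 5277 genes in all.

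**Figure D1:**
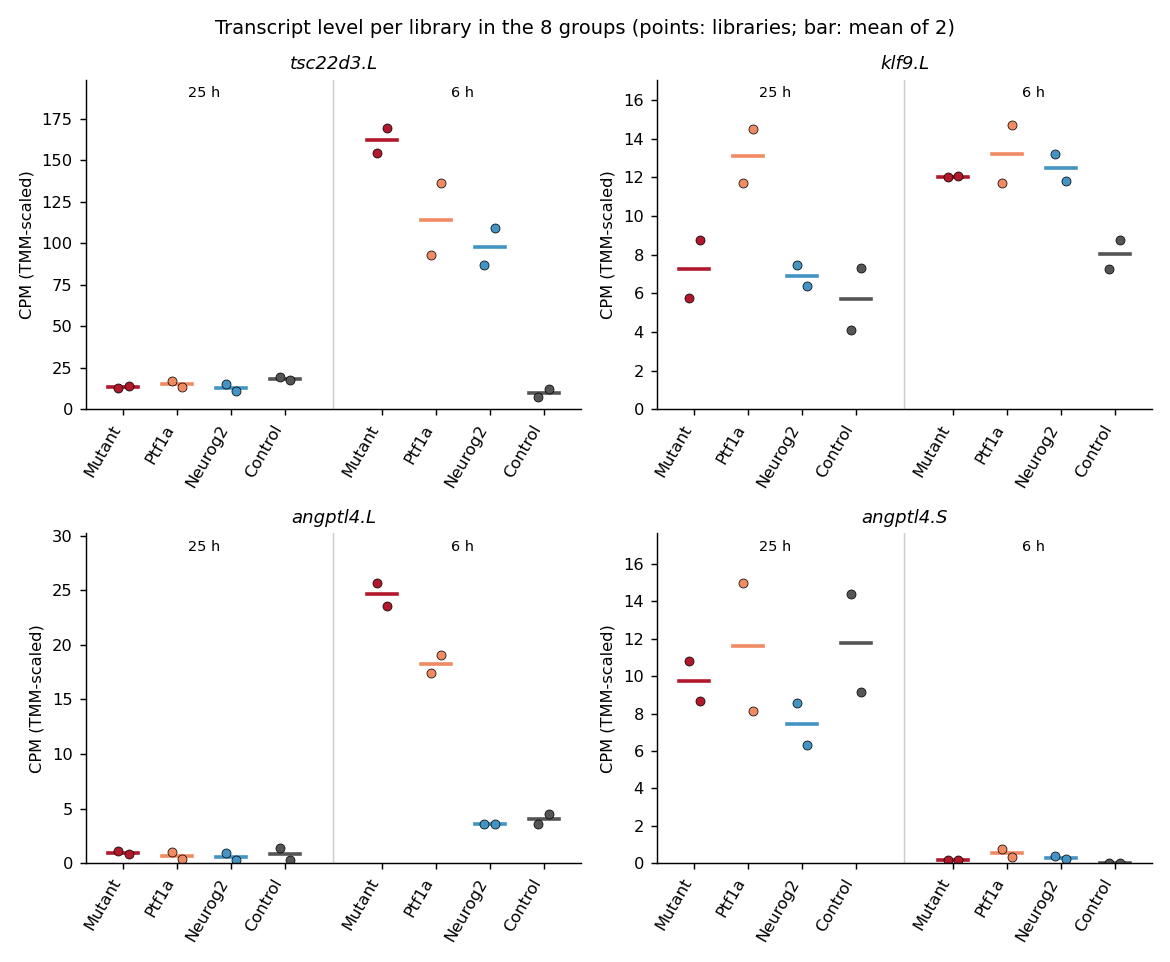
Transcript level in CPM (linear axes, TMM-scaled) of tsc22d3.L, klf9.L, angptl4.L and angptl4.S in each of the 16 libraries, as points, with the mean of 2 libraries as a bar, for caps of 25 h on the left and of 6 h on the right of each panel. At 6 h tsc22d3.L lies at 86.7 to 169 CPM in the 6 injected libraries and at 7.33 and 12.5 CPM in the controls, and angptl4.L is high with the mutant and Ptf1a but not with Neurog2.

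At 25 h tsc22d3.L no longer stood above the controls. It had 12.6 and 13.8 CPM with the mutant, 17.2 and 13.7 CPM with Ptf1a and 15.1 and 10.9 CPM with Neurog2, against 19.4 and 17.5 CPM in the controls. All 6 injected libraries were below both controls, but none of the differences passed the test: the log2 fold changes were -0.49 ± 0.27 (adjusted p = 0.738), -0.26 ± 0.27 (adjusted p = 0.567) and -0.51 ± 0.27 (adjusted p = 0.541) with the mutant, Ptf1a and Neurog2. The change in effect between the times was tested as an interaction. The log2 effect at 25 h minus that at 6 h was -4.51 ± 0.38 for the mutant (adjusted p = 0.000892), -3.78 ± 0.38 for Ptf1a (adjusted p = 0.000436) and -3.81 ± 0.38 for Neurog2 (adjusted p = 0.0116). The Neurog2 call was lost, with an adjusted p of 0.065, without the first control library of 25 h, and its alternatives ranged between 1.97e-13 and 0.065.

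The members called in this test were 1 of 16 for the mutant (0.194% of all genes), 2 of 16 for Ptf1a (9.81% of all genes) and 2 of 16 for Neurog2 (0.296% of all genes), tsc22d3.L in each and angptl4.S in those of Ptf1a and Neurog2.

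Injected and control caps moved in opposite directions between the times. Within the injected caps tsc22d3.L was lower at 25 h than at 6 h by log2 differences of -3.61 ± 0.27 with the mutant, -2.88 ± 0.27 with Ptf1a and -2.91 ± 0.27 with Neurog2, differences that were not tested on their own. In the controls it rose, to 19.4 and 17.5 CPM at 25 h against 7.33 and 12.5 CPM at 6 h, a log2 change of 0.90 ± 0.27 (adjusted p = 0.0136). That rise was not called without the first control library of 6 h (adjusted p = 0.138) or the first of 25 h (adjusted p = 0.0698), and p ranged between 0.000108 and 0.138 over its alternatives. Ordered by mean over the 8 groups, the 3 injected groups of 6 h came first, then the controls of 25 h, then the injected groups of 25 h, whose libraries overlapped, and last the controls of 6 h, which overlapped with those of Neurog2 at 25 h.

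The other TSC22 family gene measured, tsc22d2, showed no such difference between injected and control caps. Its L and S copies had log2 fold changes of -0.14 to 0.03 at 6 h. edgeR and DESeq2 called neither copy in any of the 6 comparisons with the controls. In edgeR's test 1 copy had an unadjusted p under 0.05, with Ptf1a at 25 h. Between control times, though, both copies rose from 6 h to 25 h in edgeR's test. The log2 changes were 3.02 (adjusted p = 1.65e-07) for tsc22d2.L and 1.43 (adjusted p = 0.00115) for tsc22d2.S. In injected caps tsc22d2.L had means of 102, 88.9 and 90.3 CPM at 25 h with the mutant, Ptf1a and Neurog2. At 6 h these means were 9.69, 10 and 9.66 CPM. The 5 genes whose 8 group means of log2 CPM were most like those of tsc22d3.L, out of 16081 genes with a symbol and a mean log2 CPM above 0, were id3.S (Pearson r = 0.980 over 8 group means), gatad2a.S (0.971), amotl2.S (0.967), cwc25.L (0.965) and fzd3.S (0.965). They are given as a description, over group means that share the libraries. The nearest of them had a smaller spread, with id3.S at 623 and 379 CPM with the mutant, 499 and 428 CPM with Ptf1a and 411 and 318 CPM with Neurog2 at 6 h, compared with 219 and 123 CPM for control caps.

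angptl4, a secreted inhibitor of lipoprotein lipase, differed between its copies. The L copy (chromosome 1L, 98520774 to 98530728, plus strand) carried nearly all counts at 6 h. It had 25.7 and 23.6 CPM with the mutant and 17.4 and 19.1 CPM with Ptf1a, but 3.63 and 3.55 CPM with Neurog2, against 3.60 and 4.52 CPM in the controls. The libraries of the mutant and Ptf1a lay far above the controls, and those of Neurog2 overlapped them. These differences did not pass edgeR's test: the log2 fold changes were 2.60 ± 0.58 with the mutant (adjusted p = 0.104), 2.17 ± 0.58 with Ptf1a (adjusted p = 0.183) and -0.18 ± 0.58 with Neurog2 (adjusted p = 1).

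Other settings moved angptl4.L across the threshold. DESeq2 gave adjusted p = 0.00132 with the mutant and 0.0253 with Ptf1a, and the fit on the libraries of 6 h alone gave 0.0164 and 0.0239. Over all alternatives p ranged between 0.000307 and 0.655 with the mutant and between 0.000895 and 0.708 with Ptf1a. Summing both copies of the gene gave 0.00346 and 0.0081. With Neurog2 the summed copies were not called, at a log2 fold change of -0.06. For a difference in angptl4.L among the 3 fusions, edgeR's quasi-likelihood fit gave an adjusted p = 0.412. Mutant minus Neurog2 was 2.78 ± 0.58 on the log2 scale (95% interval 1.52 to 4.03), Ptf1a minus Neurog2 was 2.34 ± 0.58 (1.09 to 3.60) and mutant minus Ptf1a was 0.43 ± 0.57 (-0.81 to 1.68).

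The S copy of angptl4 (chromosome 1S, 86812250 to 86821083, plus strand) had 0 counts in both control libraries of 6 h. It had 18 and 14 counts with the mutant, 188 and 40 with Ptf1a and 24 and 10 with Neurog2, which are 0.179 and 0.174 CPM, 0.749 and 0.325 CPM, and 0.36 and 0.24 CPM. Against a floor of 3 counts over the 2 control libraries, or 0.0285 CPM, pooled levels were at least 6.2-fold higher with the mutant, at least 21.3-fold higher with Ptf1a and at least 11-fold higher with Neurog2. If both reads of each pair were counted, the same bounds would stand at 3.1, 10.7 and 5.5. Every injected library had reads and neither control did, with adjusted p-values from edgeR of 0.0333, 0.003 and 0.0231. The call of the mutant was lost without its first library (0.155) and without either control of 6 h (0.344 and 0.231), that of Ptf1a without the first control (0.055), and that of Neurog2 without its first library (0.146) and without either control (0.309 and 0.203). All 3 were lost in the fit on the libraries of 6 h alone, with adjusted p-values of 0.201, 0.0851 and 0.239. The Neurog2 call was also lost with both copies summed, where the L copy held nearly all counts.

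klf9.L, a Krüppel-like factor on chromosome 1L, was higher in all 6 injected libraries of 6 h than in both controls, by less. It had 12.0 and 12.1 CPM with the mutant, 11.7 and 14.7 CPM with Ptf1a and 13.2 and 11.8 CPM with Neurog2, against 7.28 and 8.79 CPM in the controls. The log2 fold changes of 0.58 ± 0.30, 0.71 ± 0.30 and 0.64 ± 0.30 did not pass the test (adjusted p = 0.887, 0.627 and 1). In all, 4 of the 16 members were higher in every injected library than in both controls at 6 h (tsc22d3.L, klf9.L, angptl4.S and gpx3.S), as were 8.19% of all genes tested, and 0 were lower in every one, against 4.52% of all genes. gpx3.S, a secreted glutathione peroxidase, had 10 and 2 counts with the mutant, 28 and 22 with Ptf1a and 4 and 4 with Neurog2, against 0 in both controls, and did not pass the test (adjusted p = 0.888, 0.539 and 1). Its bounds against the floor were at least 2.32-fold higher with the mutant, 4.68-fold with Ptf1a and 2.59-fold with Neurog2, or 1.16, 2.34 and 1.29 if reads were counted in pairs. The partners klf9.S and gpx3.L were low in CPM, at 0.241 to 0.804 and 0.56 to 1.27 over the 8 libraries of 6 h. Neither was called with any fusion. Per kilobase of exon klf9.S was closer to klf9.L, with group means at 6 h of 0.559 to 0.969 against 0.826 to 1.36 CPM per kb.

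None of the remaining members was called at 6 h. per1.L, a period gene of the circadian clock that glucocorticoids induce in mammals, had 11.1 and 19.2 CPM with the mutant, 15.2 and 18.5 CPM with Ptf1a and 12.6 and 19.0 CPM with Neurog2, against 11.9 and 19.4 CPM in the controls. The groups overlapped fully, and the 95% intervals of the log2 fold changes ran from -0.99 to 0.90, -0.83 to 1.05 and -0.93 to 0.96. dusp1.L, a phosphatase that switches off MAP kinases, had 48.5 and 60.6 CPM with the mutant, 48.4 and 50.7 CPM with Ptf1a and 52.9 and 47.4 CPM with Neurog2, against 40.5 and 60.8 CPM in the controls. Its intervals were narrower, from -0.38 to 0.59, -0.52 to 0.46 and -0.50 to 0.47, so a log2 change past 0.59 in either direction lay outside all 3.

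Its copy dusp1.S had 9.6 and 21.7 CPM with the mutant, 9.05 and 16.1 CPM with Ptf1a and 11.8 and 20.3 CPM with Neurog2, against 17.2 and 45.1 CPM in the controls. The 2 controls differed from each other by more than the group means did, and Ptf1a was the one group whose libraries did not overlap theirs (log2 fold change -1.31 ± 0.50, adjusted p = 0.521, called under 1 of the alternatives, the replicate block within each time). In every group of 6 h the second library was the higher one, and each injected library lay below the control of its own number. The numbers were not taken as pairing libraries in the design.

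mknk2, a kinase that phosphorylates the translation factor eIF4E, was among the members with the highest levels. mknk2.L had 53.2 and 61.3 CPM with the mutant, 85.7 and 95.3 CPM with Ptf1a and 82.3 and 62.8 CPM with Neurog2, against 59.8 and 54.4 CPM in the controls. Ptf1a libraries lay above all others (log2 fold change 0.66 ± 0.18, adjusted p = 0.188), and mutant minus Ptf1a was -0.66 ± 0.18 (95% interval -1.06 to -0.26) and an adjusted p = 1 in edgeR's test of a difference among the fusions. mknk2.S lay between 44.8 and 54.9 CPM in all 8 libraries of 6 h. The Krüppel-like factors klf15.L and klf15.S, regulators of amino acid and glucose metabolism, stayed between 0.979 and 1.96 CPM, and cry2, a cryptochrome that represses the clock, had log2 fold changes between -0.31 and 0.05 in its L and S copies with the 3 fusions.

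**Figure D2:**
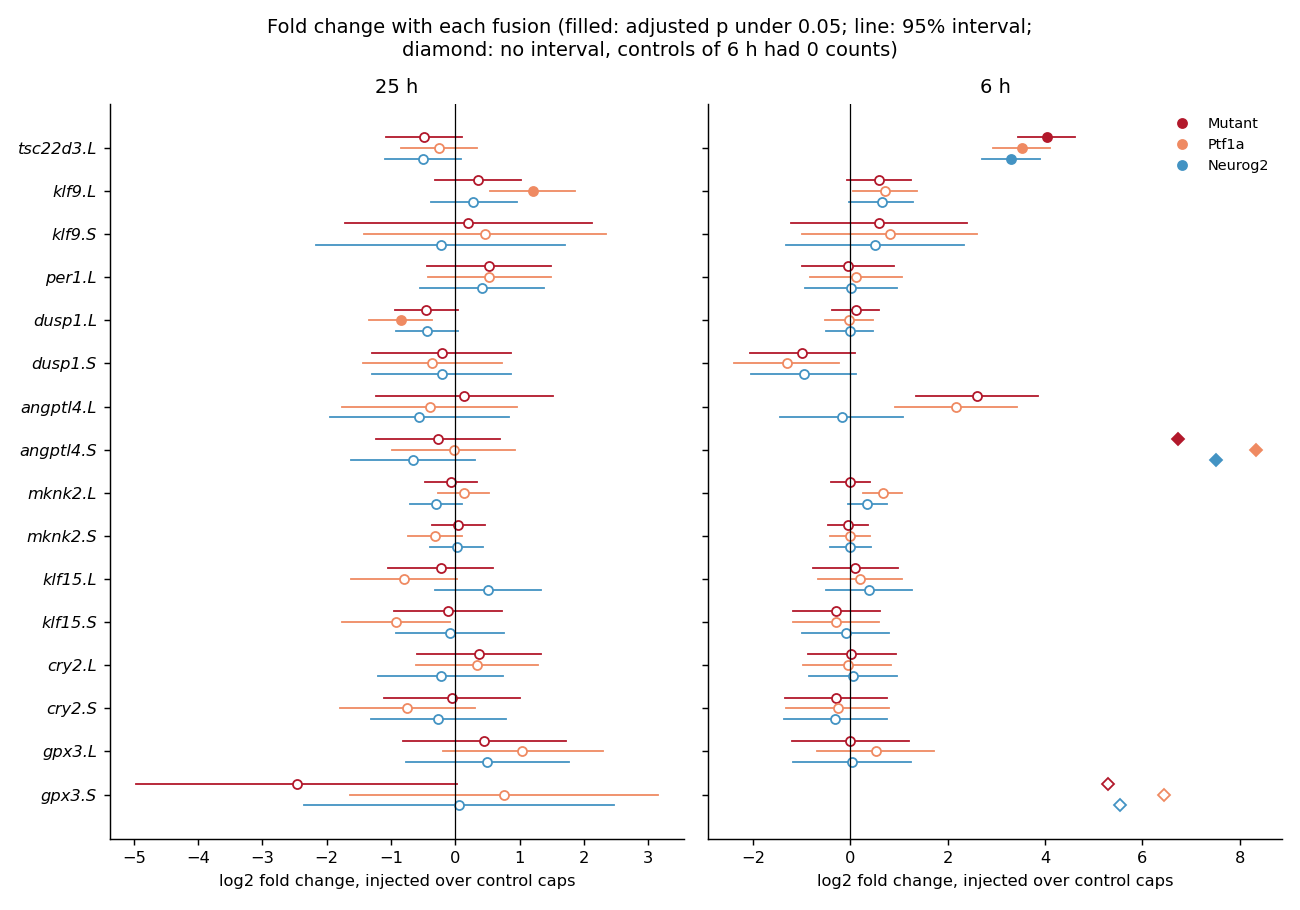
Log2 fold change of each of the 16 members in injected over control caps (horizontal axes) at 25 h (left panel) and at 6 h (right panel), with the mutant above Ptf1a above Neurog2 for each gene. Lines are 95% intervals, filled markers passed an adjusted p of 0.05, and diamonds have no interval because both controls had 0 counts: at 6 h tsc22d3.L and angptl4.S are filled for every fusion, and at 25 h klf9.L and dusp1.L are filled for Ptf1a.

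At 25 h 2 members were called with Ptf1a. klf9.L rose and dusp1.L fell, where 20.5% of all genes were called. Neither the mutant (0.836% of all genes) nor Neurog2 (3.08% of all genes) had a member called by edgeR or by DESeq2. In edgeR's test 3 of 16 members had an unadjusted p under 0.05 with Ptf1a, as did 9939 of all 30384 genes. With the mutant and with Neurog2 0 of 16 members did, beside 2751 and 3685 of all genes. The median log2 fold change of the members was -0.06 with the mutant, -0.14 with Ptf1a and -0.22 with Neurog2. Over all genes the medians were 0.01, 0.08 and -0.02 with TMM, and -0.04, -0.02 and -0.09 with the size factors of DESeq2. No member was higher in all 6 injected libraries than in both controls, against 10.6% of all genes, and tsc22d3.L and dusp1.L were lower in all 6, against 8.22% of all genes.

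klf9.L had 5.79 and 8.75 CPM with the mutant, 11.7 and 14.5 CPM with Ptf1a and 7.45 and 6.38 CPM with Neurog2, against 4.12 and 7.33 CPM in the controls. Both Ptf1a libraries were above all 6 others. The log2 fold change with Ptf1a was 1.2 ± 0.30 (adjusted p = 0.0165), and it was lost without the second Ptf1a library (0.0859) or the first control (0.157), over a range of 0.00169 to 0.157. With the mutant and Neurog2 it was 0.35 ± 0.31 and 0.28 ± 0.31. Mutant minus Ptf1a was -0.84 ± 0.30 with an interval of -1.50 to -0.19, and edgeR's test among the fusions gave an adjusted p = 0.108.

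dusp1.L had 83.1 and 78.6 CPM with the mutant, 70.9 and 51.6 CPM with Ptf1a and 90.8 and 71.7 CPM with Neurog2, against 107 and 114 CPM in the controls. The log2 fold change was -0.45 ± 0.22 with the mutant (adjusted p = 0.636), -0.85 ± 0.22 with Ptf1a (adjusted p = 0.0193) and -0.44 ± 0.22 with Neurog2 (adjusted p = 0.489). The Ptf1a call was lost without its second library (0.131), without either control (0.0704 and 0.0958) and with the L and S copies summed (0.085), and ranged between 0.00154 and 0.131.

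klf15 was lower with Ptf1a at 25 h in both copies, without passing edgeR's test. klf15.S had 18.3 and 52.2 CPM with the mutant, 18.4 and 22.0 CPM with Ptf1a and 35.5 and 36.4 CPM with Neurog2, against 40.0 and 36.3 CPM in the controls. The mutant libraries differed widely from each other, and the Ptf1a libraries lay below the controls (log2 fold change -0.92 ± 0.39, adjusted p = 0.12). DESeq2 called klf15.S lower with Ptf1a (adjusted p = 0.0482). klf15.L had 11.4 and 26.2 CPM with the mutant, 11.3 and 14.1 CPM with Ptf1a and 36.1 and 26.6 CPM with Neurog2, against 27.3 and 16.9 CPM in the controls. Its log2 fold change with Ptf1a was -0.80 ± 0.38 (adjusted p = 0.167).

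The other members overlapped the controls or missed the threshold at 25 h. cry2.S had 25.4 and 26.7 CPM with the mutant, 15.7 and 16.5 CPM with Ptf1a and 22.9 and 21.9 CPM with Neurog2, against 23.9 and 30.1 CPM in the controls. The Ptf1a libraries were the lowest of the 8, at a log2 fold change of -0.75 ± 0.48 (adjusted p = 0.323, and between 0.00465 and 0.622 over the alternatives, with 0.0259 in the fit on the libraries of 25 h alone). gpx3.S had 0.785 and 0.0655 CPM with the mutant, 3.56 and 4.08 CPM with Ptf1a and 4.1 and 0.571 CPM with Neurog2, against 3.83 and 0.637 CPM in the controls. Libraries of one group stood several times apart in the mutant, Neurog2 and the controls, so the 95% interval with the mutant ran over -4.97 to 0.03. per1.L lay between 3.23 and 8.91 CPM in all 8 libraries.

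**Figure D3:**
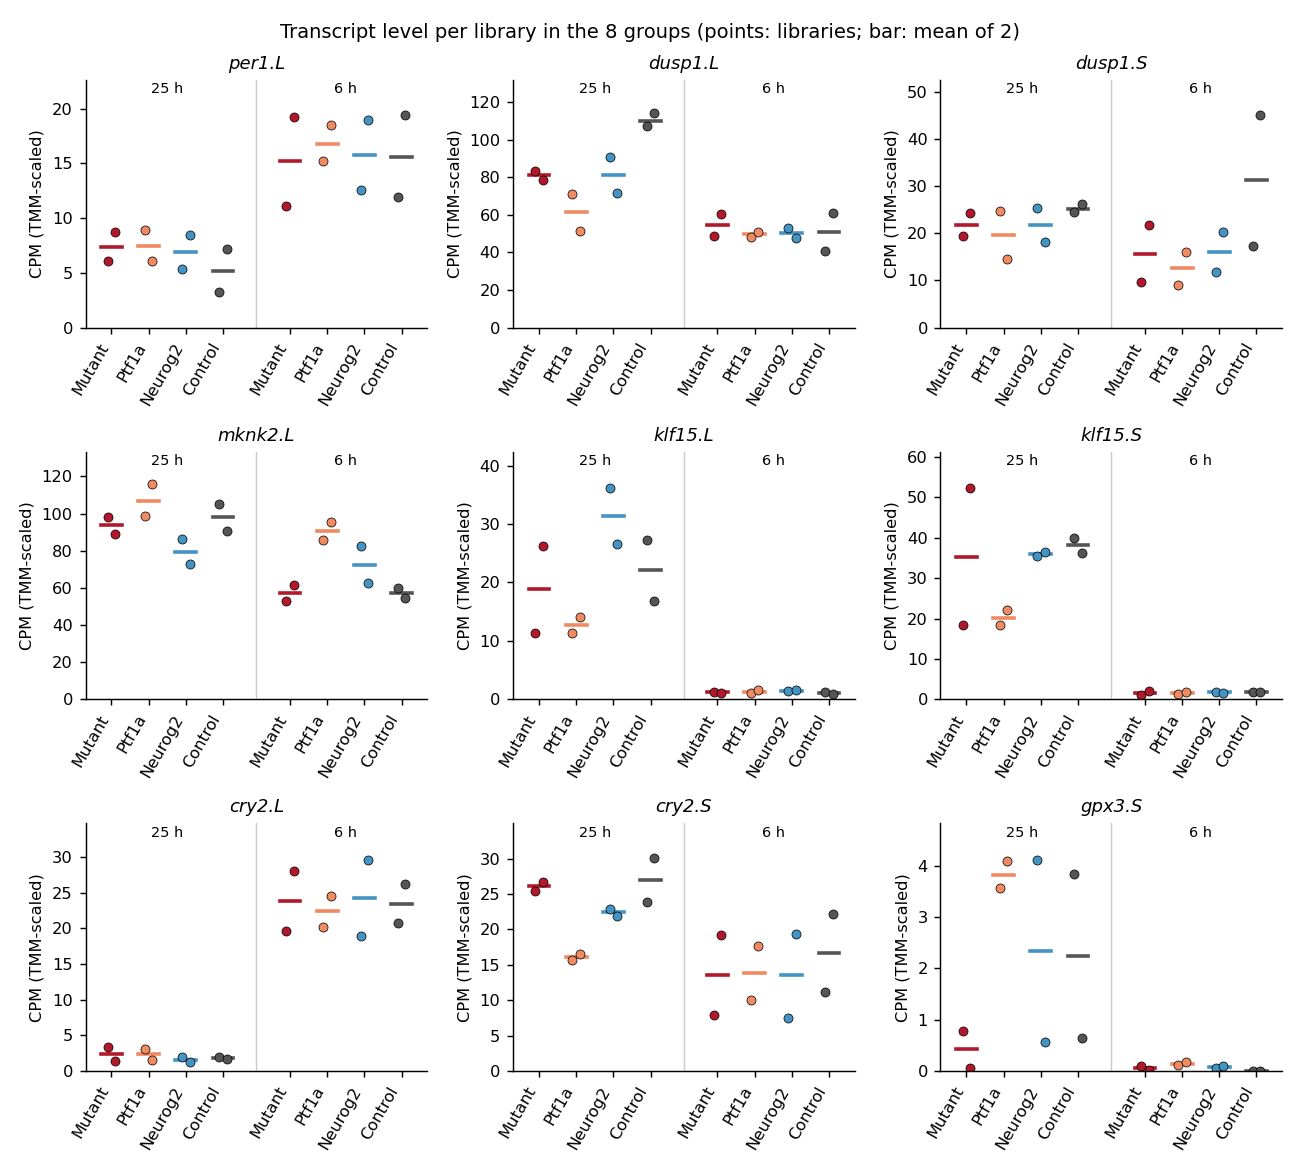
Transcript level in CPM (linear axes, TMM-scaled) of 9 other members in each of the 16 libraries, as points, with the mean of 2 libraries as a bar, for caps of 25 h on the left and of 6 h on the right of each panel. In all 8 libraries of 25 h klf15.L and klf15.S are higher and cry2.L is lower than in any library of 6 h, and dusp1.L at 25 h is highest in the controls.

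Between controls of 25 h and of 6 h, 10 of 16 members changed, 7 up and 3 down, where 59.3% of all genes changed, 28.9% up and 30.4% down. Those that rose were tsc22d3.L, dusp1.L, angptl4.S, mknk2.L, klf15.L, klf15.S and gpx3.S, and those that fell were per1.L, angptl4.L and cry2.L. Time in dexamethasone and age of the explant cannot be told apart here.

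Both copies of klf15 rose. klf15.L had 27.3 and 16.9 CPM in controls of 25 h, against 1.25 and 0.979 CPM at 6 h (log2 change 4.30 ± 0.39, adjusted p = 3.95e-06), and klf15.S had 40.0 and 36.3 CPM, against 1.83 and 1.91 CPM (4.35 ± 0.40, adjusted p = 4.18e-06). dusp1.L had 107 and 114 CPM at 25 h, against 40.5 and 60.8 CPM at 6 h (1.13 ± 0.22, adjusted p = 0.000965). mknk2.L had 105 and 90.6 CPM at 25 h, against 59.8 and 54.4 CPM at 6 h (0.78 ± 0.18, adjusted p = 0.00306). The rows klf15.2.L and klf15.2.S, whose names the rule does not match, had 12.7 and 16.5 CPM and 7.69 and 11.5 CPM in controls of 25 h, against 8.97 and 14.5 CPM and 10.1 and 14.2 CPM at 6 h, with overlap between the times.

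cry2.L fell to 1.95 and 1.75 CPM in controls of 25 h, against 20.7 and 26.2 CPM at 6 h (log2 change -3.65 ± 0.43, adjusted p = 2.82e-05). With both copies of cry2 summed, edgeR called no change (log2 change -0.47, adjusted p = 0.242). per1.L fell to 3.23 and 7.17 CPM, against 11.9 and 19.4 CPM (-1.60 ± 0.44, adjusted p = 0.00858), a call lost without the second control of 6 h (0.0692) or the first of 25 h (0.0865), over a range of 0.000817 to 0.0865. gpx3.S had 204 and 16 counts in controls of 25 h and 0 in both controls of 6 h, at least 98.4-fold higher against the floor of 3 counts over both libraries, or 49.2-fold if reads were counted in pairs (adjusted p = 0.00168). The 2 controls of 25 h stood far apart for it, at 3.83 and 0.637 CPM. With both copies of gpx3 summed, the rise was not called by edgeR (log2 change 1.69, adjusted p = 0.0816).

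In 2 of the 7 genes with both copies, angptl4 and cry2, the share of counts held by the L copy did not overlap between the times. The same was found for 46.6% of the 8155 pairs in the files with both copies past the filter, so 2 of 7 is no more than the background. Of the counts of angptl4, the L copy held 91.0% (95% exact interval 86.9 to 94.1%) to 100% (98.1 to 100%) over the 8 libraries of 6 h, and 3.36% (1.46 to 6.52%) to 9.38% (6.97 to 12.3%) over those of 25 h. These exact intervals, here and for cry2 below, cover counting error only. They would be too narrow if both reads of a pair were counted. In controls angptl4.L fell to 1.35 and 0.319 CPM at 25 h, against 3.60 and 4.52 CPM at 6 h (log2 change -2.21 ± 0.61, adjusted p = 0.00859, and 0.0621 without the second control of 25 h, over a range of 0.000618 to 0.0621). angptl4.S reached 14.4 and 9.16 CPM at 25 h against 0 counts at 6 h, at least 445-fold higher against the floor, or 222-fold if reads were counted in pairs (adjusted p = 5.89e-07).

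The S copy was also the main one in injected caps of 25 h. angptl4.S had 10.8 and 8.68 CPM with the mutant, 15.0 and 8.14 CPM with Ptf1a and 8.55 and 6.33 CPM with Neurog2 at 25 h, compared with 14.4 and 9.16 CPM for control caps, and none was called. At 6 h the same groups had held 0.174 to 0.749 CPM. The effect at 25 h minus that at 6 h was called for Ptf1a (adjusted p = 0.00289) and Neurog2 (adjusted p = 0.0282), and missed the threshold for the mutant (adjusted p = 0.0793). The mutant's change was called with no filter (0.0473) and by DESeq2 (0.0176), and the fusions were not tested against each other in it. With both copies summed, the L copy held nearly all counts at 6 h, so that setting does not bear on the S copy alone. There edgeR called the change of the mutant (log2 -2.85, adjusted p = 0.0312) but not that of Neurog2 (-0.58, adjusted p = 0.851). Leaving out 1 library ended the Neurog2 call in 7 of 8 cases, with p between 0.0804 and 0.132.

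The L share of cry2 counts lay between 54.0% (51.9 to 56.2%) and 71.6% (69.5 to 73.7%) at 6 h and between 5.23% (4.22 to 6.39%) and 16.7% (14.6 to 18.9%) at 25 h. cry2.S had 23.9 and 30.1 CPM in controls of 25 h, against 11.1 and 22.2 CPM at 6 h, a difference that did not pass edgeR's test (log2 change 0.70 ± 0.49, adjusted p = 0.236). gpx3 had few counts, with the L copy at 85.7% or more in every library of 6 h and at 8.11 to 85.7% at 25 h, so that the ranges met at one value. The shares of klf9, dusp1, mknk2 and klf15 overlapped between the times. klf9.L held 93.4 to 98.4% of klf9 counts throughout, and its annotated exons span 9724 bases against 654 for klf9.S. Reads that fit both copies could be assigned to either, and the handling of such reads is not given in the sources used here.

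**Figure D4:**
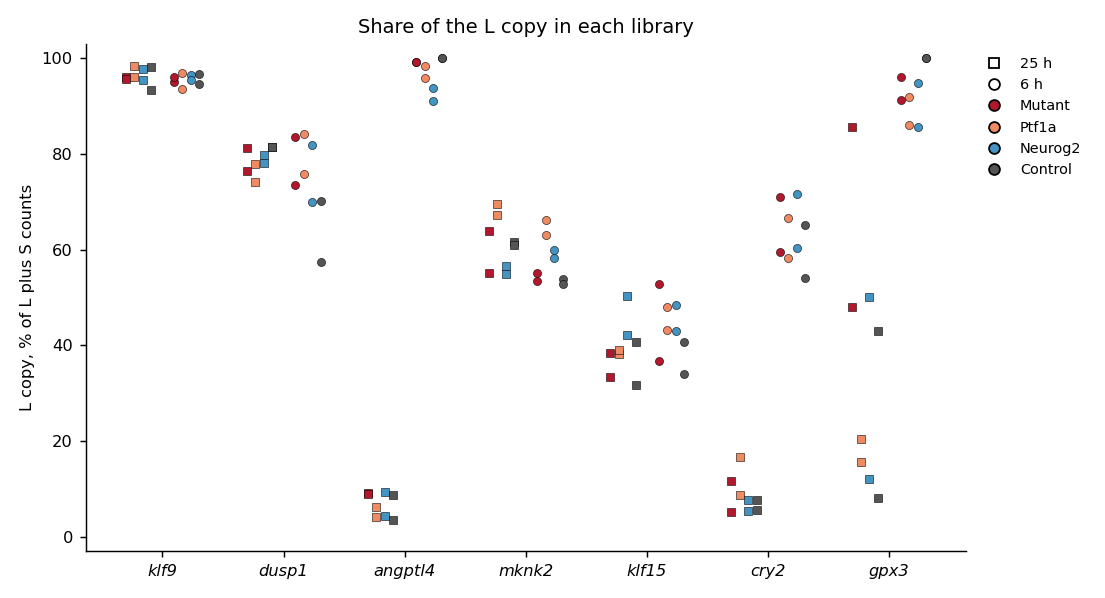
Share of the L copy among the counts of both copies (vertical axis, percent) for the 7 genes with 2 copies, 1 marker per library, squares for 25 h to the left of circles for 6 h. The L share of angptl4 is 3.36 to 9.38% at 25 h and 91.0 to 100% at 6 h, that of cry2 is 5.23 to 16.7% and 54.0 to 71.6%, and klf9, dusp1, mknk2 and klf15 overlap between the times.

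The receptors for the ligand were present in every group. At 6 h nr3c1.L, the glucocorticoid receptor, had 8.7 and 12.9 CPM with the mutant, 11.3 and 14.5 CPM with Ptf1a and 8.97 and 11.5 CPM with Neurog2, against 11.7 and 12.9 CPM in the controls. The groups overlapped or nearly so, and neither copy of nr3c1 nor of the mineralocorticoid receptor nr3c2 was called with any fusion at 6 h. At 25 h nr3c1.S fell with Ptf1a to 4.55 and 6.77 CPM, with 11.3 and 11.4 CPM with the mutant and 9.81 and 9.62 CPM with Neurog2, against 14.3 and 15.0 CPM in the controls. Its partner nr3c1.L was not called with Ptf1a at 25 h, where 20.5% of all genes were called. The log2 fold change of nr3c1.S with Ptf1a was -1.37 ± 0.35 (adjusted p = 0.0176). The call was lost without the first Ptf1a library (0.154) or either control (0.0706 and 0.0779).

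Of the receptor's chaperones and cofactors, 31 copies of 18 genes with the receptors included, edgeR called 0 at 6 h with any fusion, and DESeq2 also 0. At an unadjusted p under 0.05 there were 2 with the mutant, 3 with Ptf1a and 0 with Neurog2. At 25 h 3 of the 31 rose and 4 fell with Ptf1a, beside 11.9% of all genes up and 8.62% down. With the mutant and with Neurog2 0 were called.

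Among 57 tested copies of 32 other genes that respond to glucocorticoids in mammals, 3 rose with the mutant at 6 h, 4 with Ptf1a and 1 with Neurog2, and 0 fell, where 0.606, 0.902 and 0.25% of all genes were called in either direction. Their median log2 fold changes of 0.12, 0.12 and 0.10 stood beside 0.03, 0.15 and 0.01 over all genes. snai2.S, of the Snail family of repressors, was called with all 3, but at 0.0813 to 0.199 CPM in the injected libraries and 0 counts in the controls. edgeR's fit on the libraries of 6 h alone kept none of these calls (adjusted p = 0.291 to 0.573), and DESeq2 did not keep those of Ptf1a (0.0937) and Neurog2 (0.0521). All 3 of its calls were lost without either control, with adjusted p-values of 0.127 to 0.425. snai2.L stood out with Ptf1a, at 8.67 and 14.3 CPM, with 0.159 and 0.199 CPM with the mutant and 0.3 and 0.48 CPM with Neurog2, against 0.0643 and 0.233 CPM in the controls (log2 fold change with Ptf1a 6.34 ± 0.52, adjusted p = 0.000155), a call kept in all its alternatives.

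edn1.L, endothelin 1, rose to 3.7 and 2.45 CPM with the mutant and 4.93 and 5.63 CPM with Ptf1a, with 0.6 and 0.528 CPM with Neurog2, against 0.289 and 0.326 CPM in the controls (log2 fold changes 3.32 ± 0.52 and 4.10 ± 0.52, adjusted p = 0.0177 and 0.00388, and 0.88 ± 0.53 with Neurog2, adjusted p = 1). As for angptl4.L, the libraries of the mutant and Ptf1a lay above those of Neurog2. Without 1 of the controls the Ptf1a call was lost (0.079 and 0.066), as was that of the mutant (0.233 and 0.199, and 0.124 without its first library). Outside the naming rule, and picked once their values were seen, 2 further called copies complete the counts. fgd4.L, a Cdc42 exchange factor, had 96.4 and 70.6 CPM with the mutant, 59.1 and 70.1 CPM with Ptf1a and 59.4 and 56.1 CPM with Neurog2, against 32.7 and 39.6 CPM in the controls. Its call was for the mutant (log2 fold change 1.21 ± 0.20, adjusted p = 0.0185), with adjusted p = 0.0996 with Ptf1a and 0.538 with Neurog2, and it was lost without the first mutant library (0.206) or either control (0.253 and 0.11). scnn1a.L, a subunit of the epithelial sodium channel, had 28.5 and 17 CPM with the mutant, 29.0 and 51.5 CPM with Ptf1a and 26.0 and 17.2 CPM with Neurog2, against 8.93 and 10.5 CPM in the controls. It was called with Ptf1a (2.05 ± 0.32, adjusted p = 0.00943), with adjusted p = 0.176 with the mutant and 0.429 with Neurog2, and lost without the second Ptf1a library (0.0842) or either control (0.132 and 0.0957). Both fgd4.L and scnn1a.L lay above the controls in all 6 injected libraries. Their calls were also lost in edgeR's fit on the libraries of 6 h alone (adjusted p = 0.164 for fgd4.L and 0.183 for scnn1a.L).

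Of 39 tested copies of other clock genes, bhlhe40.L, a repressor of the clock, was the 1 called at 6 h. It had 3.23 and 2.76 CPM with the mutant, 4.21 and 7.8 CPM with Ptf1a and 1.26 and 1.44 CPM with Neurog2, against 0.803 and 0.56 CPM in the controls (log2 fold changes 2.12 ± 0.38, 3.13 ± 0.38 and 0.98 ± 0.39, adjusted p = 0.0311, 0.00222 and 1). Neither call was kept in edgeR's fit on the libraries of 6 h alone (adjusted p = 0.178 with the mutant and 0.0539 with Ptf1a). The Ptf1a call was lost without the second control (0.0556), and that of the mutant without its first library (0.205) or either control (0.166 and 0.351).

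Of 26 tested copies of stress and early response genes at 6 h, the growth arrest gene gadd45g.L rose with the mutant (log2 fold change 3.36, adjusted p = 0.0178), jun.L rose with Ptf1a (2.20, adjusted p = 0.0126) and junb.L fell with Ptf1a (-1.81, adjusted p = 0.00756). fosl2.S, picked once its values were seen, fell with Ptf1a (-1.76, adjusted p = 0.00144) and with the mutant (-1.25, adjusted p = 0.02). edgeR's fit on the libraries of 6 h alone did not call gadd45g.L (adjusted p = 0.0589), jun.L (0.211), junb.L (0.0833) or fosl2.S with the mutant (0.0821). Leaving out 1 library ended the call of gadd45g.L (without the first mutant library 0.144, without either control 0.207 and 0.205), of jun.L (without the second Ptf1a library 0.0993, without the second control 0.171) and of junb.L (without the second Ptf1a library 0.0646, without the first control 0.0704). The mutant's call of fosl2.S was lost without any 1 of its 4 libraries, at 0.0651 to 0.17. Of the members' relatives edgeR called none with any fusion at 6 h: 0 of 22 copies of other Krüppel-like factors, 0 of 15 of other MAP kinase phosphatases, 0 of 9 of other glutathione peroxidases, 0 of 4 of other angiopoietin-like genes, 0 of 9 of the mknk2 pathway and 0 of 19 of thyroid hormone signalling. DESeq2 called 1 of these, a phosphatase copy with Ptf1a. With the mutant, Ptf1a and Neurog2, an unadjusted p under 0.05 was found for 2, 5 and 2 Krüppel-like factors, 2, 2 and 1 phosphatases and 2, 6 and 0 thyroid hormone genes, and for 1 or 0 copies of each other list. Over all 11 lists together, with 233 tested copies (those of klf13 on 2 lists), edgeR called 6 with the mutant, 8 with Ptf1a and 1 with Neurog2, DESeq2 called 11, 13 and 2, and 28, 38 and 18 had an unadjusted p under 0.05. As shares, edgeR called 2.58, 3.43 and 0.429% of these copies, beside 0.606, 0.902 and 0.25% of all genes, and an unadjusted p under 0.05 was found for 12, 16.3 and 7.73%, beside 6.52, 7.03 and 3.93% of all genes. The lists, that of the other glucocorticoid-responsive genes included, were chosen with earlier results of these data known. Their shares are therefore a description, and no excess over all genes was tested.

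At 25 h the other glucocorticoid-responsive genes moved with Ptf1a in both directions, 12 up and 10 down of 57, beside 11.9% of all genes up and 8.62% down. zbtb16, a zinc finger repressor induced by glucocorticoids in human cells, had the highest fold change of the 12 in both copies. zbtb16.L had 3.14 and 2.69 CPM with the mutant, 39.5 and 83.9 CPM with Ptf1a and 2.07 and 5.62 CPM with Neurog2, against 1.13 and 2.23 CPM in the controls (log2 fold change with Ptf1a 5.22 ± 0.47, adjusted p = 0.000185), and zbtb16.S had a log2 fold change of 5.04 ± 0.49 (adjusted p = 0.000234). At 6 h zbtb16.L lay between 1.35 and 1.86 CPM in all 8 libraries, and zbtb16.S between 5.76 and 10 CPM. In controls zbtb16.S fell to 1.05 and 2.15 CPM at 25 h, against 10 and 9.65 CPM at 6 h (log2 change -2.65, adjusted p = 0.000787). With Ptf1a at 25 h it had 33.8 and 69.5 CPM. At 25 h some relatives of the members were called too. Of the 15 copies of other MAP kinase phosphatases, 1 rose with the mutant, 3 with Ptf1a and 1 with Neurog2, and 0 fell. Of all genes 0.836, 20.5 and 3.08% were called in either direction. dusp4.S, an ERK phosphatase, had 10.6 and 5.24 CPM with the mutant, 8.69 and 9.36 CPM with Ptf1a and 4.4 and 9.09 CPM with Neurog2, against 1.39 and 1.67 CPM in the controls. All 6 injected libraries lay above both controls, with log2 fold changes of 2.37 ± 0.42, 2.56 ± 0.42 and 2.14 ± 0.42 (adjusted p = 0.0333, 0.00178 and 0.0191). The calls of the mutant and Neurog2 were lost without either control and without 1 library of their own, at 0.145 to 0.323, and in the fit on the libraries of 25 h alone (0.156 and 0.08). dusp6.L and dusp6.S, copies of another ERK phosphatase, rose with Ptf1a (1.18, adjusted p = 0.00933, and 0.89, adjusted p = 0.0251), calls lost without the second Ptf1a library or the first control, at 0.0743 to 0.207. Of the 22 copies of other Krüppel-like factors, 2 rose and 4 fell with Ptf1a, and 0 were called with the mutant and with Neurog2 by edgeR or DESeq2, with 0 and 2 at an unadjusted p under 0.05.

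At 25 h edgeR called 0 of the 57 other glucocorticoid-responsive copies with the mutant (0.836% of all genes) and 1 with Neurog2 (3.08% of all genes). DESeq2 called 1 with each. An unadjusted p under 0.05 in edgeR's test was found for 4 copies with the mutant and 11 with Neurog2, beside 2751 and 3685 of all 30384 genes.

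Summed levels of markers of several cell types differed from the controls with some fusions. The counts called stand beside 0.606, 0.902 and 0.25% of all genes with the mutant, Ptf1a and Neurog2 at 6 h. At 25 h those shares were 0.836, 20.5 and 3.08%. The summed level of 20 copies of neuronal genes at 6 h was 75.1 to 123 CPM with the mutant, 106 to 130 CPM with Ptf1a and 117 to 119 CPM with Neurog2, against 19.4 to 22.5 CPM in the controls, though edgeR called 1, 2 and 1 of the 20. At 25 h it was 444 to 1410, 1640 to 1741 and 975 to 3588 CPM, against 57.9 to 78.7 CPM in the controls, with 11, 19 and 17 of 20 called higher. Ionocyte markers summed over 13 copies to 73.4 to 94.7 CPM with the mutant, 66.8 to 82.7 CPM with Ptf1a and 72.3 to 86.7 CPM with Neurog2 at 6 h, against 115 to 128 CPM in the controls, with 0 called. At 25 h they summed to 964 to 1425 CPM with the mutant, 229 to 487 CPM with Ptf1a and 936 to 1611 CPM with Neurog2, against 1423 to 1807 CPM in the controls, with 10 of 13 copies called lower and 2 called higher with Ptf1a. Epidermal markers summed at 25 h to 93605 to 128865 CPM with the mutant, 54403 to 71872 CPM with Ptf1a and 91785 to 95201 CPM with Neurog2, against 114597 to 130080 CPM in the controls. Of their 19 copies 6 were called lower and 1 higher with Ptf1a, and 0 were called with the mutant or with Neurog2. Multiciliated cell markers, 18 copies, summed at 25 h to 750 to 963 CPM with the mutant, 588 to 609 CPM with Ptf1a and 1248 to 1759 CPM with Neurog2. Controls of that time summed to 1066 to 1188 CPM. With Ptf1a 10 of these copies were called lower and 2 higher, and with the mutant and with Neurog2 0 lower and 2 higher each. At 6 h 0 were called with the mutant, 1 was higher with Ptf1a and 2 with Neurog2. Muscle markers stayed at or under 6.19 CPM at 6 h in sum over 16 copies. At 25 h the muscle sum was 37.8 to 56.9 CPM with the mutant, 36.1 to 37.5 CPM with Ptf1a and 52 to 87.5 CPM with Neurog2. The controls of 25 h had 45.8 to 58.8 CPM. Between control times 7 of 13 tested muscle copies were called higher and 2 lower, beside 28.9 and 30.4% of all genes. Blood and immune markers summed at 6 h to 8.29 to 8.31 CPM with Neurog2, with 1 of 9 tested copies called higher. The mutant had 1.32 to 2.18 CPM, Ptf1a 1.38 to 1.82 CPM and the controls 1.35 to 1.38 CPM. Endoderm markers summed at 6 h to 14.9 to 21, 14 to 23.8 and 9.21 to 23.6 CPM with the mutant, Ptf1a and Neurog2. Controls of 6 h had 8.97 to 18.6 CPM. The part of these cell types in the results above was not tested, and in whole caps a change in the number of cells of a type and a change in RNA per cell cannot be told apart.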

How the data were processed

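RNA-seq of 16 libraries of animal caps was used, 2 in each of 8 groups taken from the labels. The deposited files hold whole-number read counts per gene, which the authors made with CASAVA 1.8, STAR 2.5 and featureCounts on build 9.1, per the submitters' processing notes, which also name DESeq2 1.8. Strand and multi-mapping settings are not given in the sources used here. Coordinates and exonic lengths come from the gene annotation deposited with the series, version 1.8.3.1 per its file header and 1.8.3.2 per its name.

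Counts were tested with edgeR 4.0.16 (R 4.3.3, limma 3.58.1): TMM scaling, filterByExpr by group, and a robust quasi-likelihood fit over all 16 libraries with 8 residual degrees of freedom, a common biological coefficient of variation of 0.378 and Benjamini-Hochberg adjustment over 30384 of 45038 genes, called at an adjusted p under 0.05. 12 comparisons were made: each fusion against the control at each time, the fusions among each other at each time, control times, and the change of each fusion's effect. SE and 95% intervals come from the fitted group means, and are left out where a group has 0 counts. CPM are TMM-scaled. Folds against 0 counts are bounds, computed with the group's 2 libraries taken to hold 3 counts between them, which, like the exact binomial intervals of copy shares, covers counting error only. Log CPM of replicates correlated at 0.959 to 0.971. Alternatives were DESeq2 1.42.0, its size factors in edgeR, no filter, the libraries of one time only, a replicate block, copies summed, and each library left out. Scripts were tested on simulated data. Genes named beside the members are the receptors, the injected genes, up to 3 called copies with the highest absolute fold change of each list and time, of which those of 6 h and those of 25 h bearing on the members are described, and the 5 genes most like tsc22d3.L. Members and lists were chosen with earlier results of these data known.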

Additional observations from a re-analysis of the deposited data

Results flagged for a closer look

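The effect of a fusion differed between 25 h and 6 h, by the interaction test of edgeR's quasi-likelihood fit with Benjamini-Hochberg adjustment, in 5 cases. For tsc22d3.L the log2 effect at 25 h minus that at 6 h was -4.51 with the mutant (adjusted p = 0.000892), -3.78 with Ptf1a (adjusted p = 0.000436) and -3.81 with Neurog2 (adjusted p = 0.0116), and both injected libraries lay above both controls at 6 h and below both at 25 h in each case. For angptl4.S the fitted value was -8.36 with Ptf1a (adjusted p = 0.00289) and -8.17 with Neurog2 (adjusted p = 0.0282). These 2 fitted values depend on the prior count, since both controls of 6 h had 0 counts. The Ptf1a call was kept in 14 of 14 alternatives and the Neurog2 call in 6 of 14. With both copies summed the Neurog2 value was -0.58 and was not called.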

How the results depend on the processing

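Of 258 values of the 23 called member results under the alternatives, 223 kept their direction and call, 33 lost the call and 2 reversed. Reversals came with the L and S copies summed, where the sum takes the direction of the copy with more counts: angptl4.L between control times (1.64), angptl4.S with Neurog2 at 6 h (-0.06) and, not called before, dusp1.S between control times (0.74). Summing leaves 9 genes in place of the 16 members, so its counts of called members are out of 9. Of these it called 1 with Neurog2 at 6 h, 1 with Ptf1a at 25 h, 1 among the fusions at 6 h and 6 between control times. In the interactions of Neurog2 and the mutant it called 1 and 2. Over all genes it called 46, 4640, 37, 13084, 72 and 51 in these comparisons, in the same order. Without summing, 18011 genes were called between control times. The fit on the libraries of one time called 0 members with Neurog2 at 6 h, and 66, 101 and 24 genes with the mutant, Ptf1a and Neurog2 at 6 h, 7 and 240 with the mutant and Neurog2 at 25 h, and 5 among the fusions at 6 h. DESeq2 called 1 member among the fusions at 6 h, 2 at 25 h and 2 in the mutant's interaction. Its gene counts were 471, 571 and 197 at 6 h, 953 and 1834 with the mutant and Neurog2 at 25 h, 182 and 5277 among the fusions at 6 h and 25 h, and 495, 5014 and 790 in the interactions. No filter called 2 members and 94 genes in the mutant's interaction and 72 genes among the fusions at 6 h. These compare with 184, 274 and 76 genes at 6 h, 254, 6228 and 937 at 25 h, 46 and 2662 among the fusions, and 59, 2981 and 90 in the interactions for the mutant, Ptf1a and Neurog2. The share of calls that were higher with Ptf1a at 25 h was 57.9%, and 48.3% with DESeq2's size factors. With DESeq2 it was 78.9% against 96.1% with the mutant and 82.4% against 96.6% with Neurog2 at 25 h, and 84.2% against 98.2% with Ptf1a at 6 h. The cause of these moves was not tested.

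Groups share replicate numbers, but with 2 pairs a comparison and no shared batch in the labels the numbers were not taken as pairing libraries in the design. Deviations of same-numbered libraries correlated at 0.617 to 0.697 within 6 h, 0.201 to 0.37 within 25 h and 0.125 to 0.239 across the times. With the replicate block, 1 member was called among the fusions at 25 h and 2 in the mutant's interaction, and gene counts were 291 and 433 with the mutant and Ptf1a at 6 h, 409 with the mutant at 25 h, 81 and 4501 among the fusions, and 132, 4689 and 143 in the interactions. With the block within each time, members called were 4 with Ptf1a at 6 h, 4 at 25 h, 1 and 3 among the fusions, and 3 and 4 in the interactions of the mutant and Ptf1a. Its gene counts were 533, 741 and 156 at 6 h, 779, 10869 and 2157 at 25 h, 173 and 7537 among the fusions, and 352, 7232 and 347 in the interactions. The block gave angptl4.L with the mutant at 6 h an adjusted p of 0.0341 and the mutant's interaction for angptl4.S 0.0175. Within each time it called dusp1.S lower with Ptf1a at 6 h (0.0162) and klf15.S and cry2.S lower with Ptf1a at 25 h (0.04 and 0.00465).

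Leaving out 1 library gave 1 to 2 called members with each fusion at 6 h, 0 to 2 with Ptf1a and 0 with the mutant and Neurog2 at 25 h, 0 among the fusions at 6 h, 0 to 1 at 25 h, 8 to 10 between control times, and 1, 2 to 3 and 0 to 2 in the interactions. Genes called ranged over 52 to 388, 86 to 215 and 16 to 50 at 6 h, 1 to 482, 2959 to 4646 and 12 to 1419 at 25 h, 12 to 41 and 910 to 2467 among the fusions, 15068 to 15528 between control times, and 12 to 112, 1403 to 2535 and 0 to 516 in the interactions.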
